A study of Mus musculus with 18 samples.

Results

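Kainate receptors are ion channels opened by glutamate, and in mice 5 genes encode their subunits: Grik1, Grik2, Grik3, Grik4 and Grik5. Together with Neto1 and Neto2, which encode auxiliary proteins of these channels, they make up the 7 genes described here out of 55385 in the count table. The genes were chosen by symbol from knowledge of the receptor family, with earlier results of these data known. Grik1 is the only one of the 7 that lies in the chromosome 16 segment duplicated in these mice, while the other 6 lie on other chromosomes. All 7 passed the filter on low counts that left 18717 genes for testing.

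The samples are polyadenylated RNA from brain cortex, taken at 17.1 to 18.0 weeks of age. Each of 3 genotypes has 6 libraries, and of these 3 came from male and 3 from female mice. The WT animals were wild-type C57BL/6J mice without the duplication. Dp16 mice have part of chromosome 16 duplicated, as a model of trisomy 21, which leaves each gene of that segment at 3 copies in place of 2. Dp16_2xIFNRs mice carry the same duplication with the interferon receptor genes Ifnar1, Ifnar2, Ifngr2 and Il10rb at 2 copies, and Grik1 remains at 3 copies in both duplicated genotypes. The duplication is present in every cell, the labels name no agent given to the mice, and nothing in them says whether animals shared a litter. The library names end in a number, whose meaning the labels do not give, and 5 of these 12 numbers recur in several libraries of different genotypes (11 libraries in all). The p-values measure the spread between these libraries, which may not all be independent.

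A kainate receptor is a tetramer. GluK1, GluK2 and GluK3, the products of Grik1, Grik2 and Grik3, can form working channels on their own, whereas GluK4 and GluK5, the products of Grik4 and Grik5, bind glutamate more tightly and need a partner from the first set to reach the membrane as working channels. The receptors act on both sides of the synapse, where they tune transmitter release and carry slow currents, and in cortex and hippocampus Grik1 transcripts are best known from inhibitory interneurons. NETO1 and NETO2 are single-pass CUB-domain proteins that slow the channels' gating and influence where they sit.

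On GRCm38, with positions from GENCODE release M21, Grik1 (ENSMUSG00000022935.16) spans positions 87895900 to 88290265 of chromosome 16 on the minus strand, with 18 exons in the transcript with the longest coding part. Grik2 lies on chromosome 10 (49094833 to 49788766, minus strand) and Grik3 on chromosome 4 (125490700 to 125714173, plus strand). Grik4 lies on chromosome 9 (42518135 to 42944493, minus strand) and Grik5 on chromosome 7 (25009849 to 25072346, minus strand). The positions of Neto1 and Neto2 are given with their values. No annotated gene overlaps Grik1 or Grik5, and the genes that overlap the other 5 held at most 101 counts over all 18 libraries.

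The subunit genes share long stretches of similar coding sequence, which bears on how well their reads can be told apart. In the coding sequence of the pore loop, 51 bases around the codon for glutamine at the Q/R site are shown for the 5 subunits. In Grik1 and Grik2 this codon is a known target of RNA editing by ADAR enzymes, which was not measured here. The sequences were read from the GENCODE M21 transcripts (GRCm38), 5′ to 3′ on the coding strand, and the codon is in capitals. It is codon 636 in exon 13 of Grik1, codon 621 in exon 13 of Grik2, codon 623 in exon 12 of Grik3, codon 606 in exon 16 of Grik4 and codon 605 in exon 15 of Grik5. The runs lie at chr16:87936096-87940568, chr10:49240777-49244355, chr4:125691183-125693981, chr9:42547599-42547649 and chr7:25022473-25022523. In Grik1, Grik2 and Grik3 the run crosses an exon boundary, and the intron is left out.
Grik1: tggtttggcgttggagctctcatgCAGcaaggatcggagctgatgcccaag
Grik2: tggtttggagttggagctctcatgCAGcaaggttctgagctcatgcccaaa
Grik3: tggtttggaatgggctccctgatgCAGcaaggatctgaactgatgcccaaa
Grik4: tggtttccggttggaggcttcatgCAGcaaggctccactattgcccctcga
Grik5: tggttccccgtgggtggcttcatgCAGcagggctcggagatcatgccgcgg

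The capital codon is the same in all 5 genes, and the run differs from that of Grik1 at 5 bases in Grik2, 10 in Grik3, 20 in Grik4 and 15 in Grik5. Over the whole aligned coding sequence, Grik1 is identical to Grik2 at 72.0% of bases and 78.5% of residues, and to Grik3 at 71.1% of bases and 72.9% of residues. Its identity to the partner subunits is lower, at 55.8% of bases with Grik4 and 57.9% with Grik5, while Grik4 and Grik5 match each other at 71.3%. The longest run of bases shared without a mismatch is 38, between Grik3 and Grik5, and it is 35 between Grik1 and Grik2, against reads of 150 bases.

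Library totals ran from 46346019 to 67281449 counts. The labels of genotype held in the 4 receptor genes: for example, Ifnar1 was at 61.9 to 65.6 CPM (the count scaled to the library's effective total) in Dp16, against 41.3 to 50.1 in WT and 44.1 to 47.2 in Dp16_2xIFNRs, and all 18 libraries matched their labelled sex. Of the tissue's defining markers, Slc17a7, the vesicular glutamate transporter of cortical excitatory neurons, was at 1235 to 1699 CPM, and Gabra6, which marks cerebellar granule cells, at 0 to 0.308 CPM. Libraries differed more in striatal markers, whose summed level over 10 genes ran from 422 to 1667 CPM, and in choroid plexus markers, from 5.16 to 377 CPM over 6 genes, with every genotype covering a wide range of the first.

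Grik1 was the one member called between genotypes. Its raw counts were 555 to 644 per library in WT, 842 to 1229 in Dp16 and 949 to 1239 in Dp16_2xIFNRs. In WT its level was 10.7 CPM at the lowest, 11.99 at the median and 13.3 at the highest. In Dp16 the lowest, median and highest levels were 17.2, 18.3 and 21.5 CPM. In Dp16_2xIFNRs they were 17.4, 18.4 and 20.1 CPM. Every one of the 12 duplicated libraries lay above every WT library, and the ranges of the duplicated genotypes lay over each other.

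The means were 11.99 ± 0.876 CPM in WT, 18.9 ± 1.85 in Dp16 and 18.6 ± 0.950 in Dp16_2xIFNRs (SD, n = 6 each). Grik1 rose 1.58-fold in Dp16 against WT (95% interval 1.44 to 1.74, log2 fold change 0.66, SE 0.0655, adjusted p = 2.45e-06 by edgeR's quasi-likelihood test with Benjamini-Hochberg adjustment over all genes). In Dp16_2xIFNRs it rose 1.55-fold (1.41 to 1.71, log2 fold change 0.64, SE 0.0654, adjusted p = 3.72e-06 by the same edgeR test). Both intervals include 1.5, the ratio of 3 gene copies to 2. Between the duplicated genotypes the log2 difference was -0.02 (95% interval -0.16 to 0.11, edgeR adjusted p = 1), so that a difference of the mean beyond 10.3% lower or 8.06% higher in Dp16_2xIFNRs lies outside the interval. With the number in the library names as a block in edgeR, a fit added after seeing the data that has 4 residual degrees of freedom, Grik1 was no longer called in Dp16 (log2 fold change 0.57, adjusted p = 0.0732) and remained called in Dp16_2xIFNRs (0.62, adjusted p = 0.00690), while the genes called over the whole table fell from 140 to 33 and from 196 to 60. A limma-voom fit with that number as a random block, added after the first was seen, called Grik1 in both (0.65, adjusted p = 5.68e-06, and 0.64, adjusted p = 3.30e-06). More Grik1-expressing cells and more Grik1 RNA per cell cannot be told apart in RNA from whole tissue.

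**Figure D1:**
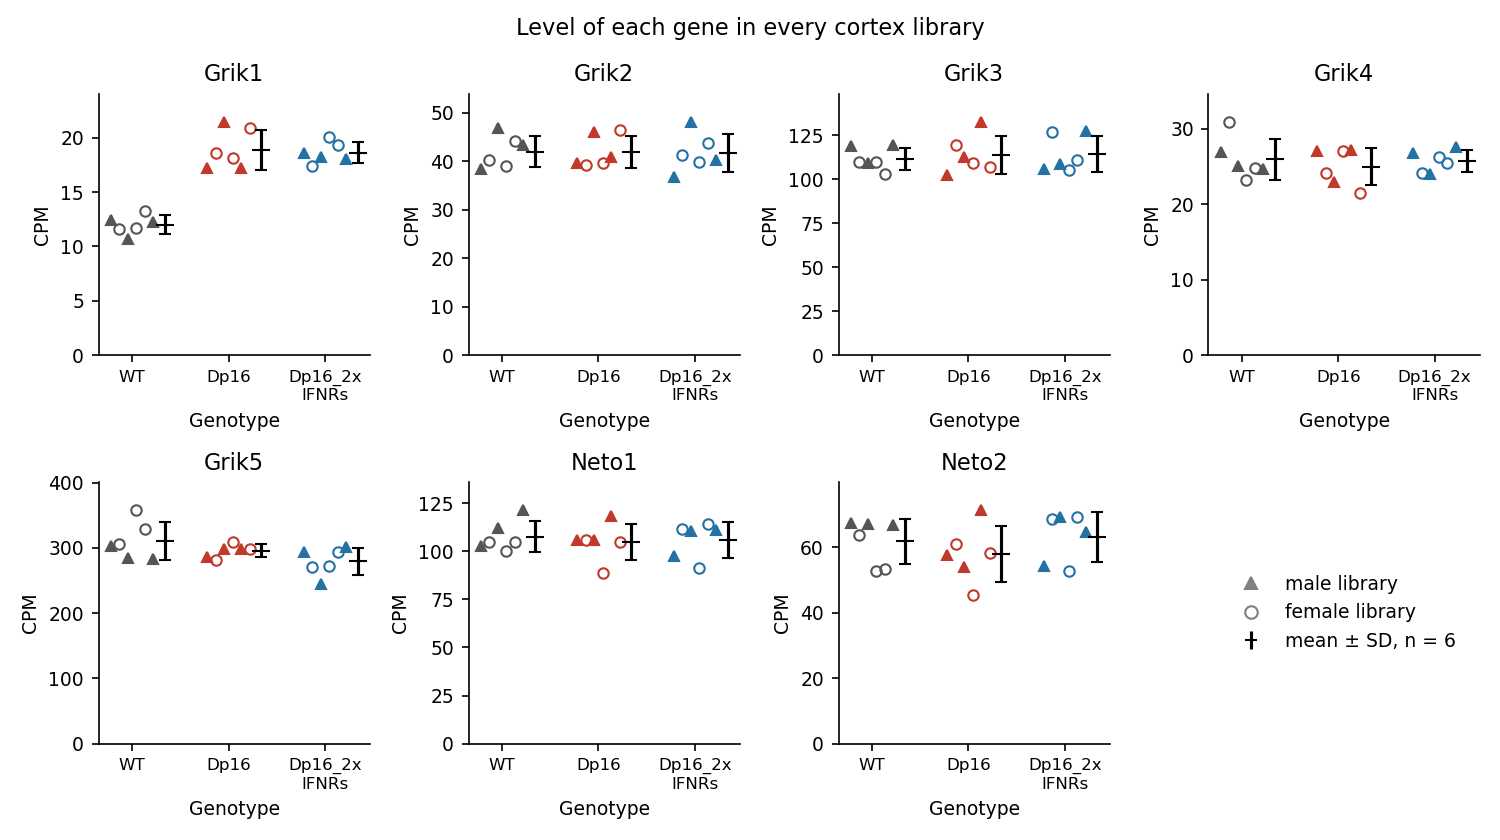
Level of each of the 7 genes in CPM (vertical axis, from 0) in every library, by genotype (horizontal axis); filled triangles are males, open circles females, and the bar at the right of each group is the mean ± SD of 6 libraries. For Grik1 all duplicated libraries, at 17.2 CPM or more, lie above the highest WT library at 13.3 CPM, and in the other 6 panels the groups overlap.

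Among the 7 genes, 1 was called at an adjusted p below 0.05 in Dp16 against WT, where 0.748% of all 18717 genes were called, and 1 in Dp16_2xIFNRs against WT, where 1.05% were. Both calls were Grik1. In Dp16_2xIFNRs against Dp16 none was called, by edgeR's test (none at an unadjusted p below 0.05 either), DESeq2 or limma-voom, against 0.0214% of all genes. Groups whose CPM ranges do not overlap were seen for Grik1 alone in the comparisons with WT, where this holds for 0.919% of all genes in Dp16 and 1.34% in Dp16_2xIFNRs. In the comparison of Dp16_2xIFNRs with Dp16 it held for none of the 7 and for 0.107% of all genes. The comparisons of the duplicated genotypes with WT share the 6 WT libraries.

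Grik2 and Grik3 encode the subunits most like GluK1. Grik2 was at 38.5 CPM at the lowest, 41.8 at the median and 46.8 at the highest in WT. It was at 39.3, 40.2 and 46.3 CPM in Dp16, and at 36.7, 40.7 and 48.2 CPM in Dp16_2xIFNRs. The Grik2 ranges overlapped almost fully, and its log2 fold change was 0.00 in Dp16 (95% interval -0.14 to 0.14) and -0.01 in Dp16_2xIFNRs (-0.15 to 0.13). A change of Grik2 by more than 10.1% upward or 9.32% downward in Dp16 thus lies outside the interval.

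Grik3 was at 103, 110 and 119 CPM in WT (lowest, median and highest), 102, 111 and 133 in Dp16 and 105, 110 and 127 in Dp16_2xIFNRs. The medians lay within 2 CPM of each other, and the highest Grik3 values were those of 1 Dp16 male, Dp16 replicate 5. Its log2 fold change was 0.03 in Dp16 (-0.10 to 0.16) and 0.03 in Dp16_2xIFNRs (-0.10 to 0.17), neither called.

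Grik4 and Grik5 encode the partner subunits. Grik4 was at 23.3, 24.9 and 31.0 CPM in WT (lowest, median and highest), 21.5, 25.6 and 27.2 in Dp16 and 23.97, 25.9 and 27.7 in Dp16_2xIFNRs, with wide overlap. Its log2 fold change was -0.06 in Dp16 (-0.21 to 0.10) and -0.01 in Dp16_2xIFNRs (-0.16 to 0.14).

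Grik5 had the highest level of the family. It was at 283 CPM at the lowest, 304 at the median and 358 at the highest in WT, at 281, 298 and 310 CPM in Dp16, and at 245, 282 and 302 CPM in Dp16_2xIFNRs. The ranges overlapped, but all 6 libraries of each duplicated genotype lay below the WT mean of 311 CPM, which 2 high WT females (358 and 329 CPM) helped to set. Its log2 fold change was -0.07 in Dp16 (-0.19 to 0.05, edgeR adjusted p = 0.816) and -0.15 in Dp16_2xIFNRs (SE 0.0563, -0.27 to -0.03, unadjusted p = 0.0149 and adjusted p = 0.268 by edgeR). This difference did not pass the test over all genes, under any alternative tried (adjusted p from 0.169 to 0.753).

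Neither auxiliary gene was called. Neto1 lies on chromosome 18 (86394952 to 86506718, plus strand) and Neto2 on chromosome 8 (85636588 to 85700924, minus strand). Neto1 was at 100, 105 and 122 CPM in WT (lowest, median and highest), 88.8, 106 and 119 in Dp16 and 91.2, 111 and 114 in Dp16_2xIFNRs. Its log2 fold change was -0.04 in Dp16 (-0.17 to 0.09) and -0.02 in Dp16_2xIFNRs (-0.15 to 0.11). Neto2 was at 52.7, 65.2 and 67.3 CPM in WT, 45.4, 57.8 and 71.3 in Dp16 and 52.8, 66.7 and 69.4 in Dp16_2xIFNRs. The lowest and the highest Neto2 library were both Dp16, a female and a male. Neto2 had the widest intervals of the 7 genes, with a log2 fold change of -0.09 in Dp16 (-0.29 to 0.11) and 0.04 in Dp16_2xIFNRs (-0.16 to 0.23). Its difference between the duplicated genotypes was 0.13 (-0.07 to 0.33).

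**Figure D2:**
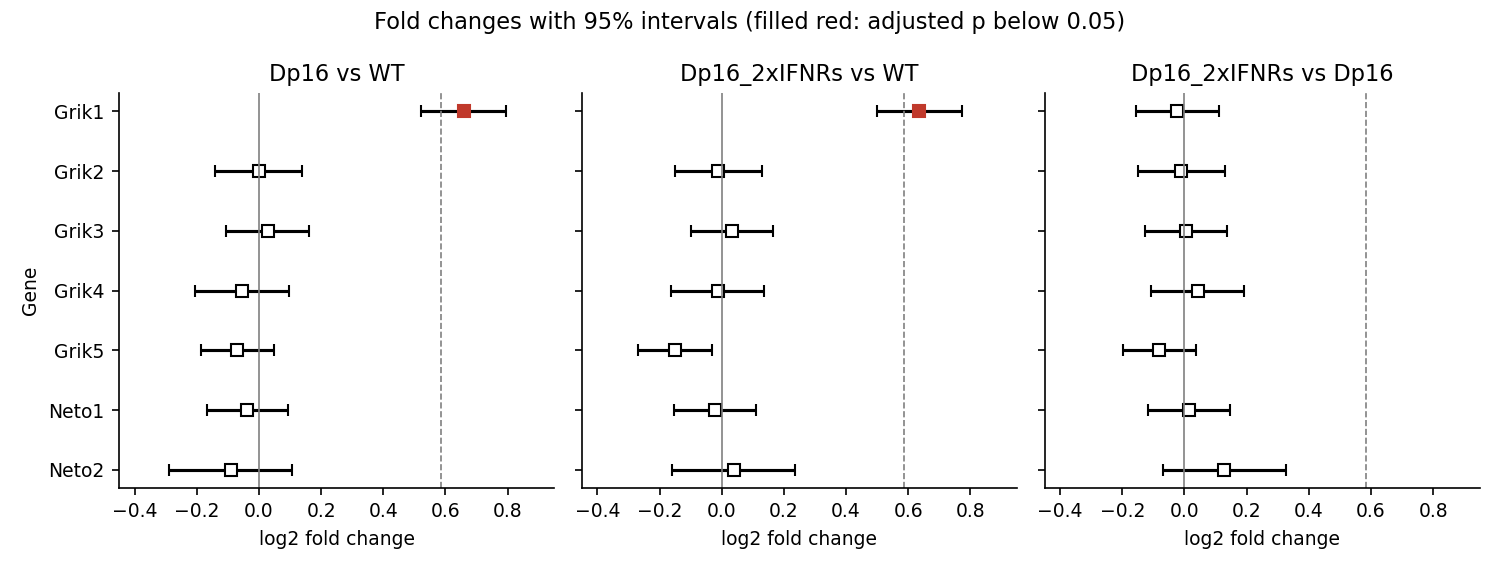
Log2 fold change (horizontal axis) of each gene (vertical axis) in the 3 comparisons, with 95% intervals from the edgeR fit; the solid line marks 0 and the dashed line 1.5-fold, and filled red squares have an adjusted p below 0.05. Grik1 alone is filled, at 0.66 and 0.64 against WT, and its interval includes the dashed line in both comparisons.

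None of the 7 genes was called between females and males in edgeR's test (0 at an unadjusted p below 0.05, and 0 by DESeq2 or limma-voom), against 0.0641% of all genes. Grik1 was at 16.8 CPM in females and 16.3 in males on average over the genotypes, a log2 difference of 0.05 (95% interval -0.06 to 0.16). The largest sex difference was that of Neto2, with a female mean of 58.3 CPM and a male mean of 63.6 CPM and a log2 difference of -0.13 (-0.29 to 0.03). No member was called for an interaction of genotype with sex by edgeR or limma-voom, none had an unadjusted p below 0.05, and 0% of all genes were called. The change of Grik1 differed between the sexes by -0.01 in Dp16 on the log2 scale.

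Levels of different genes can be compared only per length, for which the deposited RPKM values (reads per kilobase of gene, scaled to the library total) were used. In WT the order of mean levels was Grik5 (82.0 ± 7.10 RPKM), Neto1 (12.8 ± 1.13), Grik3 (12.4 ± 0.693), Neto2 (10.4 ± 1.18), Grik4 (4.33 ± 0.440), Grik2 (4.03 ± 0.367) and Grik1 (2.82 ± 0.222). Neto1 and Grik3 overlapped in this order, as did Grik4 and Grik2, and the other neighbours did not. Grik1 was the lowest of the 7 in all 6 WT libraries.

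With the duplication the RPKM level of Grik1 was 4.48 ± 0.499 in Dp16 and 4.43 ± 0.260 in Dp16_2xIFNRs, and it moved to the fifth place in both, overlapping Grik4, which in turn overlapped Grik2. The ratio of Grik1 to Grik2 in RPKM was 0.705 ± 0.0781 in WT, 1.11 ± 0.0485 in Dp16 and 1.11 ± 0.120 in Dp16_2xIFNRs, with Grik1 above Grik2 in 0, 6 and 5 of 6 libraries. The ratio of Grik1 to Grik4 was 0.657 ± 0.0831 in WT, 1.08 ± 0.214 in Dp16 and 1.02 ± 0.0632 in Dp16_2xIFNRs, with Grik1 above in 0, 3 and 4 of 6 libraries.

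This order depends on the length assigned to each gene. The RPKM values rest on 4229 bases for Grik1, whereas its transcript with the longest coding part has 2942 bases. With the lengths of such transcripts, the ratio of Grik1 to Grik2 became 0.921 in WT, with Grik1 above in 1 of 6 libraries, and 1.44 in both duplicated genotypes, with Grik1 above in all 6 of each. The ratio to Grik4 became 0.933 in WT (above in 2 of 6), 1.54 in Dp16 and 1.45 in Dp16_2xIFNRs (above in 6 of 6 each). The relative shift between genotypes is the same under either length by arithmetic, since a length scales the ratio of every library alike.

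**Figure D3:**
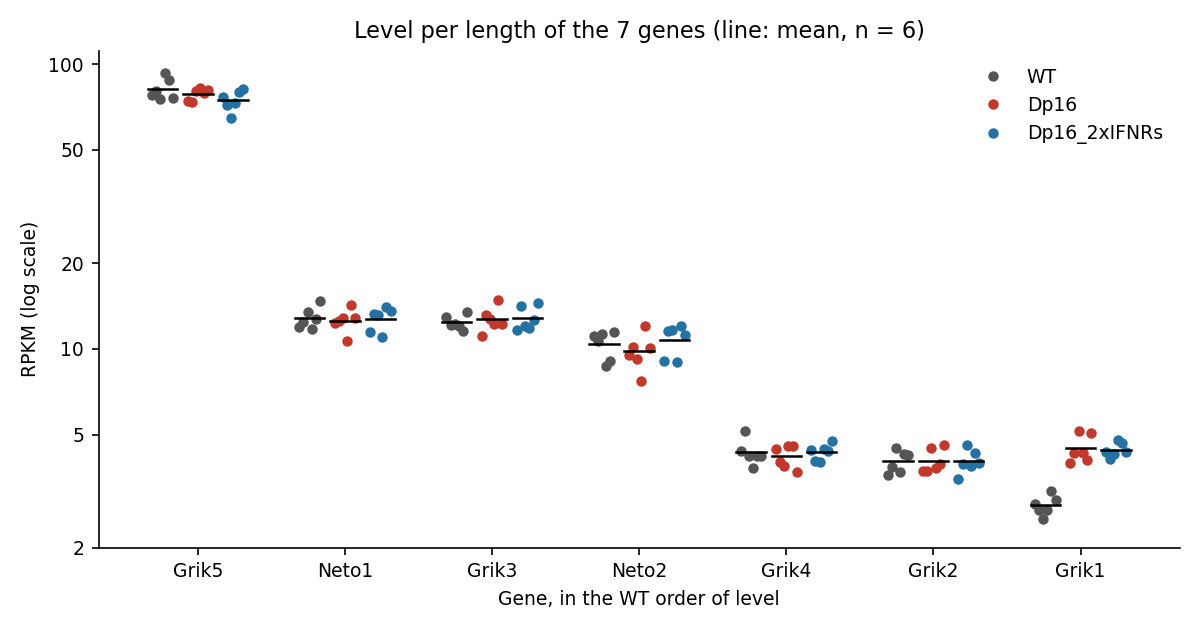
RPKM of the 7 genes on a log axis, in the WT order of mean level; points are libraries, coloured by genotype, and lines are means of 6. Grik5 lies near 80 RPKM in every genotype, and Grik1 moves from below Grik2 and Grik4 in WT, at a mean of 2.82, to their level in the duplicated genotypes.

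As a share of the summed RPKM of the 5 subunits, Grik1 made up 2.68% ± 0.213 in WT (range 2.35% to 2.91%), 4.31% ± 0.411 in Dp16 (3.82% to 4.82%) and 4.43% ± 0.352 in Dp16_2xIFNRs (3.98% to 4.90%). The WT range lies below both others. Grik5 made up most of the subunit signal, with 77.6% ± 1.99 in WT, 75.6% ± 0.996 in Dp16 and 74.4% ± 1.49 in Dp16_2xIFNRs. Grik3 came second with 11.8%, 12.2% and 12.8%. These shares depend on the length assigned to each gene. By CPM, in the order WT, Dp16 and Dp16_2xIFNRs, Grik5 made up 61.7%, 59.7% and 58.2%. Grik3 then made up 22.3%, 23.0% and 23.8%, and Grik1 2.39%, 3.82% and 3.89%. The ratio of Neto1 to Neto2 in RPKM was 1.24 ± 0.120, 1.29 ± 0.0843 and 1.19 ± 0.0530 in the order WT, Dp16 and Dp16_2xIFNRs.

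The rise of Grik1 was next set against the rest of the duplicated segment, which was bounded by Lipi (start 75540514) and Zbtb21 (end 97962622). Of its genes 110 others were tested, the 4 receptor genes left aside. Their median fold was 1.46 in Dp16 and 1.47 in Dp16_2xIFNRs, with quartiles of 1.37 and 1.55 in Dp16 and 1.33 and 1.55 in Dp16_2xIFNRs. Grik1 had a larger change than 88 of the 110 in Dp16 and than 82 in Dp16_2xIFNRs. The 110 include genes of low level with imprecise folds. Among those above Grik1 in Dp16 were Mx1, at 0.395 CPM (log2 fold change 1.46, SE 0.372), and Jam2, at 84.9 CPM (0.75, SE 0.0807). Of the 110, 63 (57.3%) and 62 (56.4%) were called, beside 0.748% and 1.05% of all genes, so that Grik1 was 1 of many segment genes past the threshold.

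Within each library, Grik1 was also expressed relative to the median log2 CPM of these 110 genes. This value averaged 0.17 ± 0.12 in WT, 0.18 ± 0.13 in Dp16 and 0.19 ± 0.06 in Dp16_2xIFNRs (SD, n = 6). The difference from WT was 0.01 in Dp16 (95% interval -0.14 to 0.17, exact two-sided permutation p = 0.816 over 924 arrangements, the smallest possible being 0.00216) and 0.02 in Dp16_2xIFNRs (-0.10 to 0.14, exact p = 0.690). These values depend on how the reference is made, since the gene in the middle of the levels can change from library to library. In Dp16 the difference was 0.107 against the mean of the segment genes (exact permutation p = 0.119), 0.10 against their median after each gene was centred on its WT mean (exact permutation p = 0.173) and 0.22 against the median of those of at least 10 CPM (exact permutation p = 0.0455). In Dp16_2xIFNRs the same references gave 0.106 (exact permutation p = 0.1104), 0.09 (exact permutation p = 0.1104) and 0.14 (exact permutation p = 0.0563).

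Listed genes around Grik1 rose with it. Of 16 neighbours listed, 14 were tested and all 14 lay above WT in both duplicated genotypes, with medians of 0.53 and 0.56 on the log2 scale. Of the 14, 12 and 11 were called, where 0.748% and 1.05% of all genes were. Cct8, which encodes a subunit of the CCT chaperonin and starts 0.794 Mb from Grik1, rose 1.53-fold in Dp16 and 1.56-fold in Dp16_2xIFNRs. Bach1, a transcription repressor gene nearer to Grik1, rose 1.35-fold and 1.34-fold. On the other side Tiam1, which encodes an exchange factor for Rac, rose 1.46-fold and 1.33-fold. The amyloid precursor gene App rose 1.47-fold and 1.51-fold, and Sod1, the superoxide dismutase gene, 1.41-fold and 1.39-fold. The other called neighbours of the list were Rwdd2b (1.55-fold and 1.53-fold), N6amt1 (1.51-fold in both), Ltn1 (1.46-fold and 1.498-fold), Usp16 (1.41-fold and 1.52-fold), Cyyr1 (1.38-fold and 1.45-fold) and Scaf4 (1.31-fold and 1.33-fold), with Adamts5 called in Dp16 only (1.43-fold). In Dp16_2xIFNRs against Dp16 none of the 14 was called by edgeR, DESeq2 or limma-voom, none had an unadjusted p below 0.05, and their median was 0.01. In that comparison 0.0214% of all genes were called by edgeR, so a count of 0 does not set these neighbours apart.

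**Figure D4:**
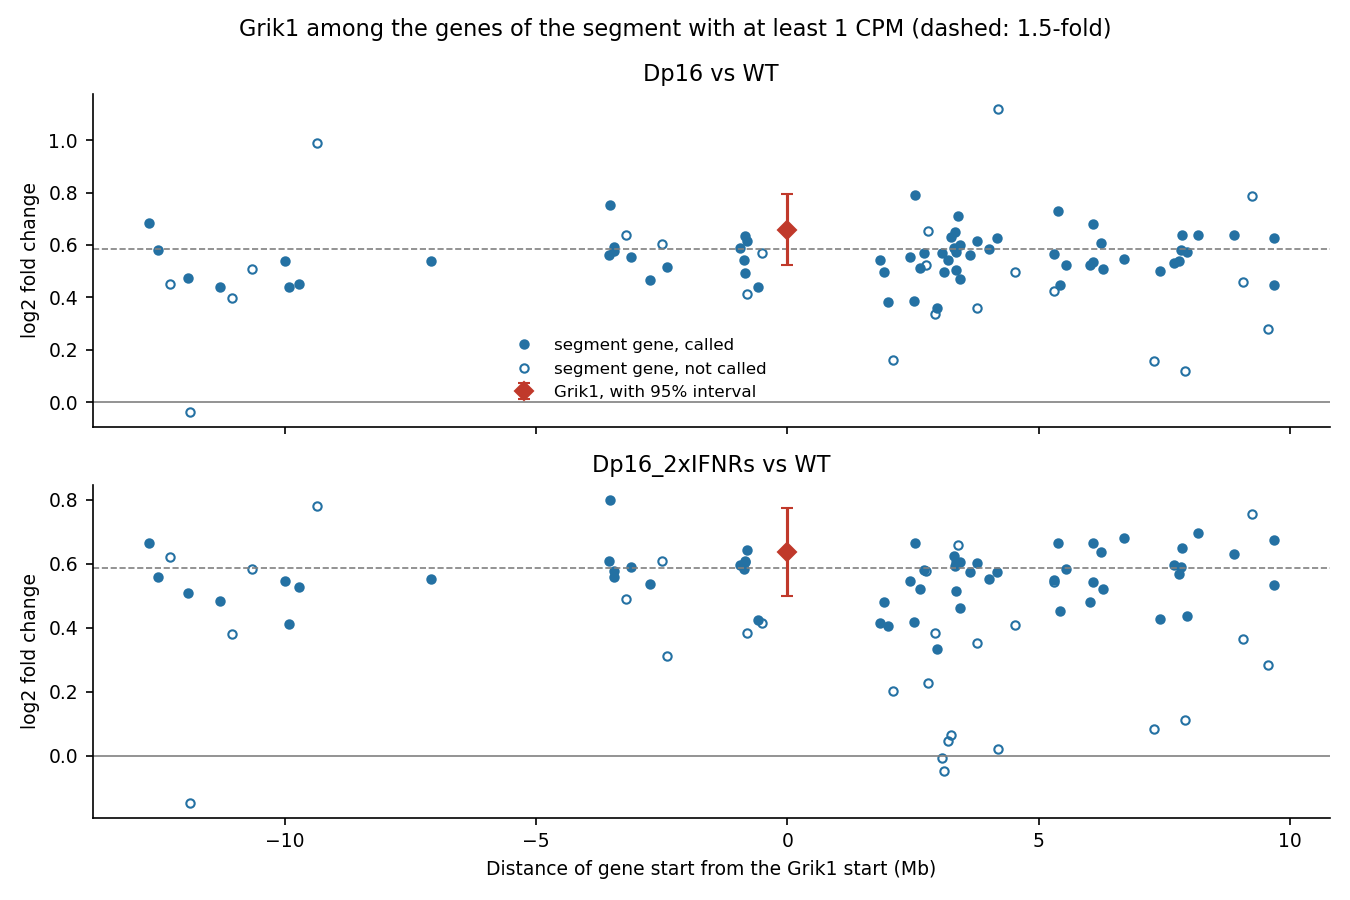
Log2 fold change against WT (vertical axis) of Grik1 (red diamond, with its 95% interval) and the 87 other tested genes of the segment with at least 1 CPM, by the distance of their starts from that of Grik1 in Mb (horizontal axis); filled points have an adjusted p below 0.05 and the dashed line marks 1.5-fold. Grik1, at 0.66 and 0.64, lies within the band of the segment genes, and the 4 receptor genes near 3 Mb sit near 0 in the lower panel only.

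No gene of a list of genes known to work with kainate receptors passed the test. In this list of partners (editing enzymes, scaffolds, trafficking, SUMO and ubiquitin factors, synaptic organisers and kinases) 34 genes were tested. By edgeR none was called in Dp16, in Dp16_2xIFNRs or between them, none was called by DESeq2 or limma-voom, and 3, 6 and 0 had an unadjusted p below 0.05, beside 1655, 2158 and 410 of all 18717 genes. With 0.748%, 1.05% and 0.0214% of all genes called, a count of 0 in a list of this size does not set it apart. The list's medians were -0.02, -0.01 and -0.01, and 13, 14 and 15 of the 34 lay above the reference group, while the median of all genes was 0.00 in Dp16. Adarb1, the gene of the enzyme that edits the Q/R site, was at 258 ± 20.1 CPM in WT, 239 ± 5.47 in Dp16 and 240 ± 7.08 in Dp16_2xIFNRs. Its log2 fold changes were -0.11 (SE 0.0447, edgeR adjusted p = 0.464) and -0.10 (SE 0.0447, adjusted p = 0.376). Among the highest members, Camk2a, the kinase subunit of the postsynaptic density, had log2 fold changes of -0.05 and -0.13, and Snap25, a SNARE protein gene, of -0.04 and 0.02.

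Of the 13 tested genes for AMPA, NMDA and delta receptor subunits, 1 was called in any comparison. The share of all genes called by edgeR was 0.748% in Dp16, 1.05% in Dp16_2xIFNRs and 0.0214% between them. Grin2c, which encodes an NMDA receptor subunit, fell by 0.35 on the log2 scale in Dp16_2xIFNRs against WT, from 75.7 ± 8.10 to 59.2 ± 6.57 CPM (SE 0.0741, edgeR adjusted p = 0.0220). Its log2 fold change was -0.23 in Dp16 against WT (edgeR adjusted p = 0.243) and -0.12 between the duplicated genotypes (edgeR adjusted p = 1). The call was lost without WT replicate 4 or 5 or without Dp16_2xIFNRs replicate 2, 3 or 4 (adjusted p from 0.0564 to 0.0634) and in a fit of these 2 groups alone (adjusted p = 0.0538), and with the library-name number as a block (log2 fold change -0.32, adjusted p = 0.476). It was kept with that number as a random block in limma-voom (log2 fold change -0.35, adjusted p = 0.0145). Grin1, the obligatory NMDA subunit gene, was at 619 ± 39.9 CPM in WT and 622 ± 20.5 in Dp16, and Gria2, an AMPA receptor subunit gene, had a log2 fold change of -0.06 in Dp16. Of 15 genes for AMPA receptor auxiliaries and sorting receptors, none was called by edgeR or limma-voom in any comparison and 1 by DESeq2 in Dp16_2xIFNRs against WT. At an unadjusted p below 0.05 there were 0 in Dp16, 2 in Dp16_2xIFNRs and 0 between them, beside 1655, 2158 and 410 of all 18717 genes. Cacng7 had log2 fold changes of -0.07 and -0.15 (edgeR adjusted p = 0.699 and 0.124), and Cnih2 of 0.07 and -0.05.

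Markers of the neurons that could carry Grik1 were set beside its rise. The summed level of 19 markers of GABAergic neurons was 1367 to 1420 CPM in WT, 1234 to 1523 in Dp16 and 1353 to 1519 in Dp16_2xIFNRs, and 14 and 11 of the 19 lay above WT in the duplicated genotypes. The median log2 fold change of all genes was -0.00167 in Dp16 and 0.000434 in Dp16_2xIFNRs. Of the 19 markers, 1 was called in each duplicated genotype, where 0.748% and 1.05% of all genes were called. This was Cort, the gene of the interneuron peptide cortistatin. It rose from 6.51 ± 1.17 CPM in WT to 11.2 ± 1.16 in Dp16 (1.73-fold, edgeR adjusted p = 0.000306) and 10.4 ± 1.42 in Dp16_2xIFNRs (1.60-fold, edgeR adjusted p = 0.00207). Both calls were lost with the library-name number as a block in edgeR (log2 fold changes 0.76 and 0.58, adjusted p = 0.186 and 0.155). Both were kept with that number as a random block in limma-voom (0.80, adjusted p = 0.000324, and 0.68, adjusted p = 0.00142). None of the GABAergic markers was below 0.1 CPM in every library. The 12 excitatory markers summed to 2188 to 2709 CPM in WT, 2126 to 2488 in Dp16 and 2101 to 2447 in Dp16_2xIFNRs, with 2 of 12 above WT in each duplicated genotype and none called by edgeR, DESeq2 or limma-voom (2 at an unadjusted p below 0.05 in each). Of all 18717 genes, 1655 in Dp16 and 2158 in Dp16_2xIFNRs had an unadjusted p below 0.05. Slc17a7 had log2 fold changes of -0.05 and -0.09 and Cux2, an upper-layer transcription factor gene, of -0.02 and -0.04. The part of these markers in the rise of Grik1 was not tested.

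The way members varied together was read from log2 CPM after removing the means of genotype and sex, over 18 libraries and all 21 pairs. Neto1 and Neto2 were the only pair past the threshold, with Pearson's r = 0.83 (permutation p = 3e-05, adjusted 0.00063) and Spearman's rho = 0.82 (permutation adjusted p = 0.00294). Without the 2 libraries farthest from the median of Neto1, r was 0.77, and with any 1 library left out it ran from 0.785 to 0.910 and stayed called. Within genotypes, over 6 libraries each, r was 0.18 in WT, 0.96 in Dp16 and 0.97 in Dp16_2xIFNRs. In Dp16 replicate 4 was lowest and replicate 5 highest in both genes, and the rest lay at 105 to 106 CPM of Neto1. An r over 6 libraries is imprecise, and the difference between genotypes was not tested.

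**Figure D5:**
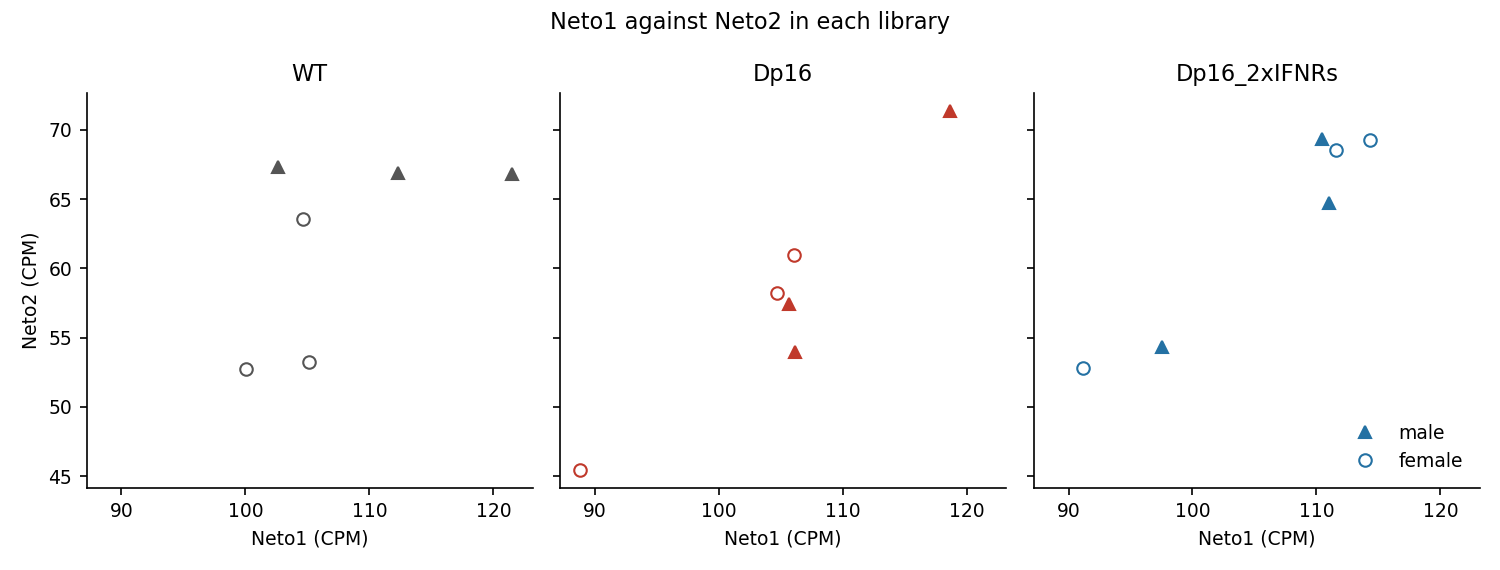
Neto2 against Neto1 in CPM, 1 point per library and 1 panel per genotype, with filled triangles for males and open circles for females. In Dp16 replicate 4 is lowest in both genes (88.8 and 45.4 CPM) and replicate 5 highest in both (119 and 71.3 CPM). The rest of Dp16 lies at 105 to 106 CPM of Neto1, with Neto2 at 54.0 to 61.0 CPM. In Dp16_2xIFNRs replicates 1 and 4 are the lowest in both genes. In WT the 3 males share a Neto2 level near 67 CPM over a wide range of Neto1.

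Grik1 was not correlated with any other member past the threshold. Its strongest relation was with Grik4, at r = -0.42 (permutation p = 0.0798, adjusted 0.239; rho = -0.37; r = -0.32 without the 2 farthest libraries). Grik2 and Grik4 had r = -0.58 and rho = -0.53 (permutation adjusted p = 0.0809, r = -0.44 without the 2 farthest), and Grik3 and Neto2 r = 0.60 and rho = 0.55 (permutation adjusted p = 0.0809, r = 0.42 without the 2 farthest). The number of correlated pairs rose from 1 to 2 when WT replicate 2, WT replicate 4 or Dp16_2xIFNRs replicate 6 was left out.

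Marker levels of the dissected tissue moved with some members from library to library. Each of 12 marker lists was taken as the log2 of its summed CPM, in which the most abundant markers weigh most. Over 84 relations of the 7 genes with these levels, a comparison added after seeing the data, 4 passed the threshold. Grik2 was lower where excitatory cortical markers were higher (r = -0.84, rho = -0.78, permutation adjusted p = 0.00252, r = -0.79 without the 2 farthest libraries), and this held within each genotype at r = -0.85, -0.78 and -0.93. It was higher where striatal markers were higher (r = 0.69, rho = 0.74, permutation adjusted p = 0.0315, r = 0.77 without the 2 farthest), a call lost when any of 7 single libraries was left out: WT replicates 1, 5 and 6, Dp16 replicates 3 and 6 and Dp16_2xIFNRs replicates 1 and 5 (permutation adjusted p from 0.0508 to 0.114). Within genotypes that r was 0.74, 0.70 and 0.66.

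Neto1 also followed the striatal markers (r = 0.78, permutation adjusted p = 0.00588; rho = 0.64, permutation adjusted p = 0.0681; r = 0.63 without the 2 farthest; r = 0.51, 0.72 and 0.93 within WT, Dp16 and Dp16_2xIFNRs). The same relation for Neto2 had r = 0.46 and rho = 0.43 (permutation adjusted p = 0.262). Grik1 followed the thalamic markers (r = 0.75, rho = 0.71, permutation adjusted p = 0.00868; r = 0.57 without the 2 farthest; r = 0.65, 0.98 and 0.41 within genotypes). That call was lost without Dp16 replicate 3 (r = 0.62, permutation adjusted p = 0.168) or Dp16 replicate 6 (r = 0.71, permutation adjusted p = 0.0526), the 2 Dp16 libraries highest in Grik1. The 7 thalamic markers summed to 61.5 to 69.6 CPM in WT, 59.4 to 76.8 in Dp16 and 64.4 to 76.5 in Dp16_2xIFNRs, overlapping ranges beside the separate ranges of Grik1. The part of these markers in the correlations was not tested.

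The genes most like each member across the 18 libraries, among 11212 genes of at least 5 CPM and after the same centring, were found by Pearson's r, as a description with no p since all share libraries and depth. Grik1 was most like Unkl (0.77), Hif3a (0.77), Ache (0.75), Prr5 (0.75) and Sesn1 (0.75), none of them in the segment. Grik2 was most like Ryr3 (0.87), Pde1c (0.83) and Ric8b (0.83). Grik3 was most like Tigar (0.87), Kcnf1 (0.83) and Hs6st1 (0.82), and Grik4 most like Becn1 (0.80), Igsf21 (0.80) and Fbxw7 (0.79). For Grik5 they were Atp13a2 (0.91), Rnf181 (0.90) and Pold4 (0.90). For Neto1 they were St8sia3 (0.93), Gprin3 (0.92) and Gnb5 (0.91), and for Neto2 Elmod1 (0.92), Rgs7bp (0.90) and Foxp1 (0.89). The values for Grik1 were the lowest among the 7 genes. Grik1 also had the fewest counts of the 7, at 555 to 1239 per library, and the part of counting noise in these values was not tested.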

How the data were processed

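Polyadenylated RNA from 18 cortex libraries was sequenced as paired reads of 150 bases from strand-specific libraries, per the labels' protocols. The tools and build, GRCm38 with HISAT2 2.1.0, HTSeq 0.6.1, SAMtools 1.5, FastQC 0.11.5 and bcl2fastq, are named per the submitters' processing notes. The strand setting of the counting is not given in the sources used here. The authors deposited raw counts per gene and library, and RPKM values, which equalled count over library total and a single length per gene for 31735 of 31735 genes checked (relative tolerance 1e-06). Groups, sex and age came from the labels.

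Counts were filtered (filterByExpr by group, minimum count 10), normalized by TMM and tested with edgeR 4.0.16 (R 4.3.3) in a quasi-likelihood fit with genotype and sex over all 18 libraries, adjusted over 18717 genes and called below 0.05. CPM are TMM-normalized and given as mean ± SD. The common biological coefficient of variation was 12.2% with 14 residual degrees of freedom. Log2 CPM used a prior count of 2. Correlations used 100000 permutations with Benjamini-Hochberg adjustment over the family. RPKM served only to compare levels between genes. Of the genes, 55144 were placed in GENCODE M21. DESeq2 1.42.0, limma-voom (limma 3.58.1), other filters, scalings and covariates, and leaving out each library were alternatives. The number in the library names was tried as a block after the data were seen: the 7 pairs of libraries of different genotype that share it correlated at 0.104 to 0.428 in their deviations from the genotype means (all 7 over 0.1), against 16 of 47 other pairs of the same sex. After removing sex means as well, 6 of the 7 were over 0.1 (the lowest at -0.0269), against 12 of the 47 other pairs. The fixed block left out sex, since each number holds 1 sex.

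The members and gene lists were chosen with earlier results of these data known. All 7 members were named in every comparison, with Adarb1, every called gene of a list or otherwise up to 2 of its most abundant, and the 5 (Grik1) or 3 genes most like each member. Marker lists of thalamus, striatum, hippocampus, cerebellum, choroid plexus, glia and endothelium had no called gene by edgeR in any comparison (0 to 3 per list at an unadjusted p below 0.05, at most 1 by DESeq2 or limma-voom). Of all genes 0.748%, 1.05% and 0.0214% were called, and 1655, 2158 and 410 of 18717 had an unadjusted p below 0.05. The 3 were reached by oligodendrocyte markers in Dp16_2xIFNRs against WT (6 of 6 above, median log2 0.14). Choroid plexus markers also reached 3, in Dp16_2xIFNRs against Dp16 (0 of 6 above, median -1.07). No duplicate libraries were seen: within-group variance was at least 11.9 times counting noise in 45 pairs.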

Additional observations from a re-analysis of the deposited data

How the results depend on the processing

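Grik1 kept its direction in both comparisons with WT under every alternative run, and its call under all but 1: with the library-name number as a block in edgeR, added after seeing the data, it was at 0.569 in Dp16 (adjusted p = 0.0732) and 0 members were called there. Its log2 fold change over 12 other blocks, filters, scalings, covariates and tools ran from 0.569 to 0.664 (Dp16) and 0.622 to 0.643 (Dp16_2xIFNRs), and with 1 library left out from 0.61 to 0.688 and 0.61 to 0.663. That block put Grik3 at -0.13 and Grik4 at 0.11 in Dp16 against WT, Grik3 at -0.0514, Grik4 at 0.0996 and Neto2 at -0.0681 in Dp16_2xIFNRs against WT, and Grik1 at 0.053, Grik2 at 0.0297, Grik4 at -0.0103 and Adarb1 at -0.00345 between the duplicated genotypes. As a random block in limma-voom it gave Grik4 0.00452 in Dp16_2xIFNRs against WT. The other differences that changed sign were never called either. With 1 library left out they ran, in Dp16 against WT, from -0.035 to 0.0307 for Grik2, -0.0194 to 0.0641 for Grik3, -0.0841 to 0.01 for Grik4 and -0.0685 to 0.00138 for Neto1. In Dp16_2xIFNRs against WT they ran from -0.0585 to 0.0269 for Grik2, -0.00519 to 0.0601 for Grik3, -0.0412 to 0.0526 for Grik4, -0.056 to 0.0118 for Neto1 and -0.00584 to 0.0934 for Neto2. Between the duplicated genotypes they ran from -0.045 to 0.0244 for Grik1, -0.0571 to 0.028 for Grik2, -0.0342 to 0.0559 for Grik3, -0.000649 to 0.0718 for Grik4, -0.0235 to 0.0507 for Neto1 and -0.00751 to 0.0209 for Adarb1. The sex difference of Grik2 ran from -0.0521 to 0.00504. With a filter of 1 CPM in 6 libraries Grik2 was at 0.00448 in Dp16 against WT. With age as a term it was at 0.00325 in Dp16_2xIFNRs against WT and 0.0161 against Dp16, and Neto1 at 0.0024 in Dp16_2xIFNRs against WT. With 1 library left out, Grik1 relative to the segment ranged between -0.0177 and 0.0498 in Dp16 and between -0.0107 and 0.0472 in Dp16_2xIFNRs, and it reached 0.223 in Dp16 against segment genes of at least 10 CPM, where it passed 0.05 (the cause was not tested). Correlated pairs numbered 1 to 2 with 1 library left out. Genes called over the whole table numbered 140 in Dp16 (247 by DESeq2, 33 with the library-name block), 196 in Dp16_2xIFNRs (394 by DESeq2, 60 with the library-name block, 304 with the replicate block, 121 without Dp16_2xIFNRs replicate 2 and 125 without WT replicate 2), 4 between the duplicated genotypes (2 with the library-name block) and 12 between the sexes (20 by DESeq2). The replicate numbers of the titles paired the libraries in part. Correlations of same-numbered libraries ran from -0.181 to 0.428, 11 of 18 were over 0.1, and 10 of 18 were highest with their own number. Some of these libraries also share a library-name number, as replicate 1 of every genotype does (930). For such libraries the numberings cannot be told apart. With the replicate block Grik1 was at 0.657 in Dp16 and 0.636 in Dp16_2xIFNRs, and the sex difference of Grik2 at 0.126. Each member had 555 or more counts in every library.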
